A study of Mus musculus with 2 samples.

Results

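The cells described here are 75 single cells of mouse skin that carried RNA of Il1rl1 or Klrg1, marker genes of group 2 innate lymphoid cells (ILC2s). They were taken from cell set 1, the cells whose names end in the suffix 1, and were chosen by what was measured in them. A cell qualified with at most 10% of its UMIs on mitochondrial genes and at least 2 UMIs of Il1rl1 and Klrg1 together. UMIs are tags that mark each captured RNA molecule, so that its amplified copies are not counted again. The 75 cells were 5.20% (4.12 to 6.48%) of the 1441 cells of the set that passed the mitochondrial limit, and the deposited table held 5246 cells in all. They were set against the 1283 cells of the set with no UMI of either gene, called cells without either RNA.

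C57/BL6 mice of postnatal day 1 and postnatal day 14 gave the skin from which innate lymphoid cells (CD45+, Lin- and Thy1.2+) were sorted, and the cells were captured with a 10x Genomics 5' kit, with 1 library of each day. No treatment or mutant allele is named in the labels, and the number and sex of the mice behind a library are not stated in the sources used here. The suffix of the cell names matches neither day, so set 1 was not assigned to an age and the days were not compared. Cells of 1 library are not replicates, so no test was run, and every interval below is a 95% interval that covers counting error only.

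Il1rl1 encodes ST2, the receptor for the alarmin IL-33, which injured barrier cells release and which drives ILC2s to secrete type 2 cytokines. Klrg1 encodes an inhibitory lectin-like receptor that is found on mature and activated ILC2s. ILC2s depend on the transcription factor GATA3 and are known for IL-5, which sustains eosinophils, for IL-13, which acts on epithelium and fibroblasts, and for the repair factor amphiregulin. In mouse skin, ILC2s are found among other Thy1-positive lymphocytes such as ILC3s and dendritic epidermal T cells.

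The bases just before the starts of Il1rl1, Il5 and Il13 are shown because Il1rl1 chose most of the cells, Il5 differed most in them and Il13 is the neighbouring cytokine gene. Il1rl1 lies on chromosome 1 (40404864 to 40465418). The pair of Il1rl1 start sites used here, called upstream and downstream, lies inside that span. No window was taken before its outer end at 40404864. Il5 (53720794 to 53725103) and Il13 (53631323 to 53634702) lie on chromosome 11. Klrg1 lies on chromosome 6 (122270596 to 122282833). The windows hold the 250 bases before each start, from RefSeq on build GRCm38.p6, written 5′ to 3′ on the gene's strand. Capitals mark matches, on either strand, to AGATAA or to AGATAG, and likewise to TGATAA or to TGATAG, the letters that GATA factors are known to recognise, so a match on the other strand is printed as its reverse complement. No marked match overlaps another.
Il1rl1, upstream start, chr1:40429320-40429569, + strand: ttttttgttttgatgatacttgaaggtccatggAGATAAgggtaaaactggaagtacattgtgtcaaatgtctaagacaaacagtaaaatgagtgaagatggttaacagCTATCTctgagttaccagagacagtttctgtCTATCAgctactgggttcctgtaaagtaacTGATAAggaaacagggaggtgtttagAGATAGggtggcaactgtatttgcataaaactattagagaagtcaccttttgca
Il1rl1, downstream start, chr1:40439379-40439628, + strand: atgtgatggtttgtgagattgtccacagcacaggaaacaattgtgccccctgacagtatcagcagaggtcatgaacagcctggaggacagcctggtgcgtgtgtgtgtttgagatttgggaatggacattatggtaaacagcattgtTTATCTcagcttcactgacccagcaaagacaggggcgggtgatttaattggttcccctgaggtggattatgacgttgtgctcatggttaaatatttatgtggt
Il5, chr11:53720544-53720793, + strand: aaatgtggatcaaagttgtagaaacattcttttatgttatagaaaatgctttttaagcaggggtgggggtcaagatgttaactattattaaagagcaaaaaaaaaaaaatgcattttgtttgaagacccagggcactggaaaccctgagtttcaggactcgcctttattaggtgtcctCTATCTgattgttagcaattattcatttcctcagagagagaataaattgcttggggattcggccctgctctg
Il13, chr11:53634703-53634952, - strand: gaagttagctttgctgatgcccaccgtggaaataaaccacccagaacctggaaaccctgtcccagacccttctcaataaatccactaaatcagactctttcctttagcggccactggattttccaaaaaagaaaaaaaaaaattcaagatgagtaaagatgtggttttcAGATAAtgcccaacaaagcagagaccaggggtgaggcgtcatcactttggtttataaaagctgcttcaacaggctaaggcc
The window before the upstream Il1rl1 start held 5 matches, and each of the other windows held 1. Of 32851 windows of this length before gene starts in the table, 26.5% held at least 1 match and 14 (0.0426%) held 5 or more. The Il5 match begins 72 bases before the start and the Il13 match 81 bases before it. These are matches of letters and not measured binding sites.

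The choosing genes themselves are given as a description. The 75 cells held 273 Il1rl1 UMIs in 69 cells, with a median of 3 and a highest value of 17 in a cell. Klrg1 was sparser, with 49 UMIs in 30 cells and a highest value of 4. Il1rl1 stood at 254 CPM (UMIs of a gene per 1000000 UMIs of the group) and Klrg1 at 45.7 CPM. Il1rl1 without Klrg1 was found in 45 cells, both RNAs in 24 cells and Klrg1 without Il1rl1 in 6 cells. At the threshold, 27 cells had exactly 2 UMIs of the 2 genes and qualified, while 83 cells had 1 UMI and entered neither group.

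The chosen cells were somewhat deeper than the cells they were set against, as a rule on UMIs favours. Their UMIs per cell ran from 3737 to 31540 with a median of 12786, against 508 to 43514 with a median of 10466 in the cells without either RNA. The medians of detected genes were 2862 and 2628, and those of mitochondrial UMIs 3.1% and 3.26%, in the same order. Summed UMIs were 1073331 in the chosen cells and 14361231 in the cells without either RNA. Both levels and shares of cells are given below, and shares are also given after thinning of all cells to the lower quartile of the set, 7770 UMIs, which left 69 chosen cells and 937 cells without either RNA. Of the barcodes, 4 occurred in both cell sets. Scrublet called 1 doublet among the kept cells of set 1 and none among the 75, so doublets can be taken as largely undetected.

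Among the 9324 genes with at least 50 UMIs over both groups, 65 (0.697%) were at least 2-fold higher in the Il1rl1 or Klrg1 cells and 66 (0.708%) at least 2-fold lower. The ratio used for these counts adds 10 CPM to both levels, which holds back genes with few UMIs and understates their differences. Over all these genes the median log2 ratio was -0.07, and 38.4% were higher and 61.6% lower at all. The minimum of UMIs was taken over both groups, and the chosen cells held far fewer UMIs. A gene found only in the cells without either RNA passed this minimum at a lower CPM than one found only in the chosen cells. The excess of lower genes was therefore not read as a difference between the groups. Il1rl1 and Klrg1 are left out of every count and list. Il5 had the largest ratio of CPM + 10 of these genes, 10.96.

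**Figure D1:**
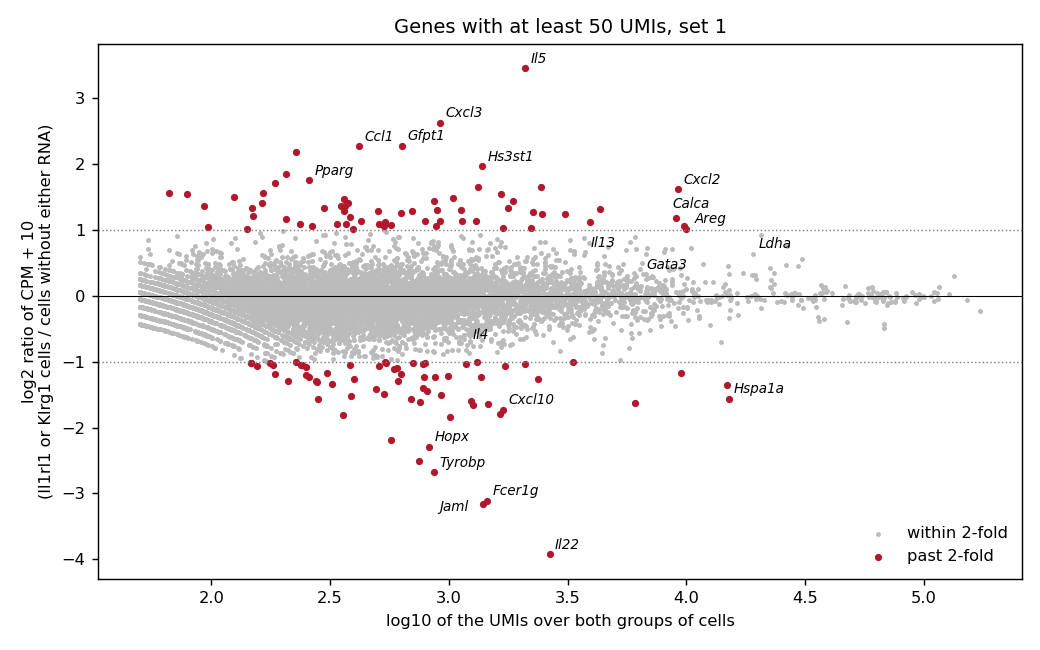
Each point is a gene with at least 50 UMIs over both groups of set 1. The x axis gives log10 of its UMIs and the y axis the log2 ratio of CPM + 10, Il1rl1 or Klrg1 cells over cells without either RNA, with 65 genes above and 66 below the dotted 2-fold lines. Il5 is the highest point and Il22 the lowest.

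Il5 was the effector cytokine that most set these cells apart. It stood at 936 CPM in the Il1rl1 or Klrg1 cells, from 1005 UMIs, against 76.3 CPM in the cells without either RNA, from 1096 UMIs. The 75 cells were thus 5.20% of the set and held nearly as many Il5 UMIs as the 1283. The ratio of CPM was 12.3 (11.3 to 13.4). Single cells ran from 0 to 150 Il5 UMIs with a median of 3 in the chosen group, against 0 to 62 with a median of 0 in the other. The groups therefore overlapped at the low end, and the cell with 150 UMIs held 14.9% of the group's Il5. Without that cell's Il5 UMIs the ratio of CPM + 10 was 9.34, and in thinned cells it was 11.7.

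An Il5 UMI was found in 73.3% (61.9 to 82.9%) of the Il1rl1 or Klrg1 cells and in 21.9% (19.7 to 24.3%) of the cells without either RNA. After thinning the shares were 68.1% and 20.5%. Cluster 4 of the set, described below, had an Il5 UMI in 1.97% of its 203 cells without either RNA and stood at 6.72 CPM. The median depth of that cluster was 8444 UMIs. How much RNA the droplets picked up from the surrounding fluid was not measured.

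Il13 and Areg were also higher, by far less than Il5. Il13 stood at 375 CPM in the Il1rl1 or Klrg1 cells and 233 CPM in the cells without either RNA, a ratio of 1.60 (1.44 to 1.78). It was found in 70.7% and 45.2% of cells, and after thinning in 59.4% and 42.7%. Areg, the gene of amphiregulin, stood at 1224 CPM in the chosen cells and 599 CPM in the others, a ratio of 2.04 (1.93 to 2.16). The median cell of the chosen group held 10 Areg UMIs, against 1 in the other group. Csf2, the gene of the myeloid growth factor GM-CSF, stood at 150 CPM in the chosen cells against 49.2 CPM, a ratio of 3.05 (2.56 to 3.63). It was found in 48.0% and 15.2% of cells. Calca, which encodes the neuropeptide CGRP, stood at 1242 CPM in the chosen cells and 539 CPM in the cells without either RNA, a ratio of 2.30 (2.17 to 2.44).

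Il4 went the other way by level. It stood at 43.8 CPM in the Il1rl1 or Klrg1 cells and 79.8 CPM in the cells without either RNA, a ratio of 0.549 (0.401 to 0.735). By share of cells the order was turned round, with Il4 found in 30.7% of the chosen cells and 19.6% of the others, and in 20.3% and 16.1% after thinning, whose intervals overlapped. The most Il4 UMIs in a cell were 10 in the chosen group and 154 in the cells without either RNA. No order was read from the Il4 share, since it goes against the CPM.

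The type 2 effector list held 8 genes with enough UMIs. Of these, 7 were higher and 1 was lower, 6 were past 2-fold, and the median log2 ratio was 1.31 beside -0.07 for all genes. Among all genes, 38.4% were higher and 0.697% at least 2-fold higher. The 2 least secure members were Ccl1, a chemokine, and Penk, the precursor of enkephalin peptides. Ccl1 had 141 UMIs in 6 chosen cells, with 60.3% of them in 1 cell. Its ratio of CPM + 10 of 4.82 was 2.12 without the Ccl1 UMIs of that cell. All 29 Penk UMIs of the chosen group lay in 1 cell, and without them the ratio of CPM + 10 was 0.80. Of the genes under the minimum, Il9 had 7 UMIs in the chosen cells and 0 in the cells without either RNA. Ccl17 had 3 and 29, Il6 0 and 9, and Il10 0 and 44, in the same order.

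The cytokines were found together in a larger share of the chosen cells. Each of Il5, Il13 and Areg was also found in a larger share of these cells, which by itself raises the joint shares. Whether the joint shares went beyond that was not tested. Thinned to 1 depth, Il5 and Il13 were both detected in 30 of 69 Il1rl1 or Klrg1 cells (43.5%, 31.6 to 56.0%) and in 113 of 937 cells without either RNA (12.1%, 10.0 to 14.3%). Il5 without Il13 was found in 24.6% and 8.43% of cells. Il13 without Il5 had the reverse order, with 15.9% of the chosen cells and 30.6% of the others. Il5, Il13 and Areg were found together in 37.7% and 8.54%. None of Il5, Il13, Il4, Areg and Csf2 was detected in 4.35% (0.906 to 12.2%) of the chosen cells and in 26.3% (23.5 to 29.2%) of the cells without either RNA.

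**Figure D2:**
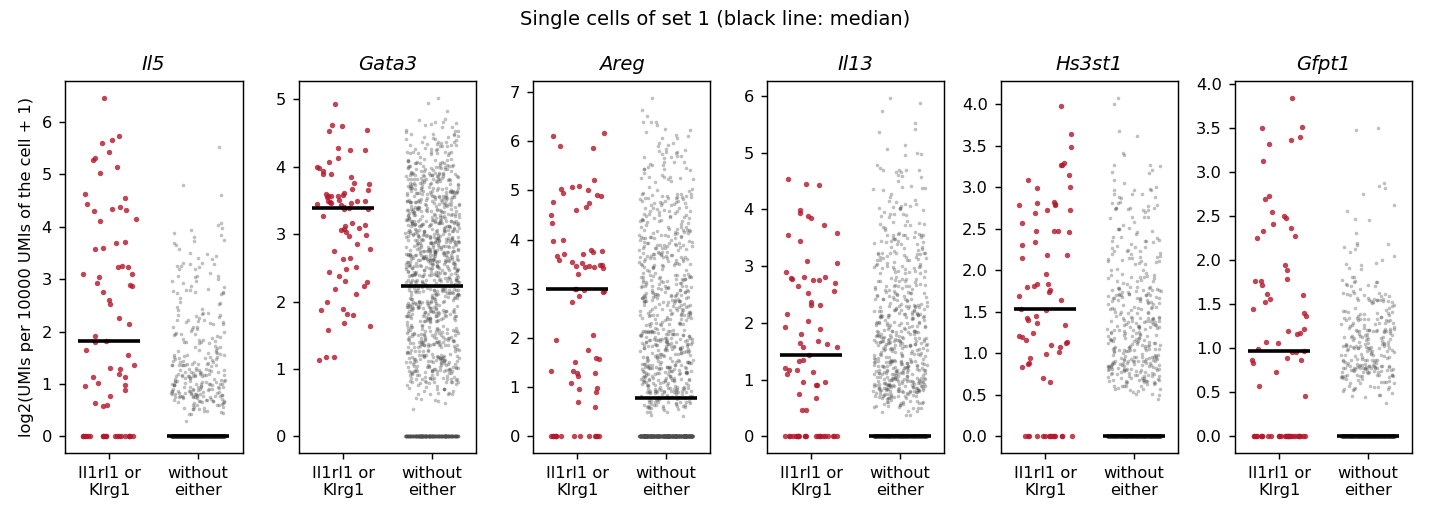
Each point is a cell of set 1, with the Il1rl1 or Klrg1 cells in red on the left and the cells without either RNA in grey on the right of each panel. The y axis gives log2(UMIs per 10000 UMIs of the cell + 1) and the black line the median. The Il5, Il13, Hs3st1 and Gfpt1 medians lie above 0 only in the Il1rl1 or Klrg1 cells, and all 75 of those cells have Gata3.

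Gata3 was detected in all 75 Il1rl1 or Klrg1 cells and in 80.9% of the cells without either RNA. The chosen cells held 1 to 47 Gata3 UMIs with a median of 11, against a median of 4 in the others. Its level was 891 CPM in the chosen cells and 540 CPM in the others, a ratio of 1.65 (1.54 to 1.77). After thinning, 98.6% and 80.8% of cells had a Gata3 UMI. Gata3 and Il5 did not choose the cells, and both stood at a higher level in the group than in the other cells. The markers do not hold for each cell alike, since 20 of the 75 had no Il5 UMI and most of the cells without either RNA had Gata3 too.

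The 13 remaining ILC2 markers were higher in 11 cases, where 38.4% of all genes were, and lower in 2. Their median log2 ratio was 0.66, and 4 were at least 2-fold higher, where 0.697% of all genes were. Hs3st1, a heparan sulfate sulfotransferase, stood at 313 CPM in the Il1rl1 or Klrg1 cells and 72.7 CPM in the cells without either RNA, a ratio of 4.31 (3.80 to 4.87), and was found in 80.0% and 30% of cells. Il2ra, the alpha chain of the IL-2 receptor, stood at 307 CPM in the chosen cells against 107 CPM, a ratio of 2.86 (2.53 to 3.22). Rora, a transcription factor needed for ILC2 development, stood at 2285 CPM against 1655 CPM, and the costimulatory receptor Icos at 1294 CPM against 942 CPM, with the chosen cells first in both. Arg1, the gene of arginase-1, stood at 42.9 CPM in the chosen cells and 17.8 CPM in the others, a ratio of 2.40 (1.72 to 3.30). Il7r, the receptor for the survival factor IL-7, differed little, with 570 CPM in the chosen cells and 528 CPM in the others, a ratio of 1.08 (0.993 to 1.17).

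Of other receptors known from ILC2s in the lung and other tissues, Il17rb, Ptgdr2 and Il1rap rested on few UMIs, and Crlf2 differed little. Il17rb, a receptor chain for IL-25, stood at 8.39 CPM in the Il1rl1 or Klrg1 cells, from 9 UMIs, and 18.0 CPM in the cells without either RNA. Its ratio was 0.467 (0.211 to 0.900). Ptgdr2, the prostaglandin D2 receptor CRTH2, had 3 UMIs in the chosen cells, at 2.80 CPM, and stood at 5.71 CPM in the others. Its ratio was 0.490 (0.0989 to 1.48). Crlf2, a receptor chain for TSLP, stood at 68.9 CPM in the chosen cells and 60.8 CPM in the others. Il1rap, the chain that pairs with ST2, had only 3.73 CPM in the chosen cells, from 4 UMIs, and 3.62 CPM in the others. The 15 alarmin and cytokine receptors as a list sat near the middle of all genes, with a median log2 ratio of 0.02. In this list 9 were higher, where 38.4% of all genes were, and 6 were lower. The list had 1 gene at least 2-fold higher, where 0.697% of all genes were. Within it, Il18rap stood at 152 CPM in the chosen cells and 89.9 CPM in the others, while its partner chain Il18r1 stood at 70.8 CPM and 124 CPM in the same order.

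Among 15 transcription factors of ILC2s, 11 were higher, where 38.4% of all genes were, and 4 lower, with a median log2 ratio of 0.13. Those past 2-fold were Pparg and Gfi1. Pparg, a lipid-sensing nuclear receptor, stood at 67.1 CPM in the Il1rl1 or Klrg1 cells and 12.9 CPM in the cells without either RNA, a ratio of 5.21 (3.91 to 6.87). It was found in 41.3% and 10.1% of cells, and after thinning in 34.8% and 9.07%. Gfi1, a repressor that works with GATA3 in ILC2s, stood at 21.4 CPM, from 23 UMIs, in the chosen cells and 5.15 CPM in the others. Nfkb1, a subunit of the NF-κB factors that act downstream of ST2, stood at 567 CPM in the chosen cells and 346 CPM in the others. Maf was lower, with 109 CPM in the chosen cells and 183 CPM in the others.

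Activation receptors differed by gene and not as a list. Of 25 genes of activation and effector differentiation, 15 were higher, where 38.4% of all genes were, and 10 lower. Their median log2 ratio was 0.04. Besides Il2ra, the genes past 2-fold were Tnfrsf4, Tnfrsf9 and Ly6a. Tnfrsf4, the costimulatory receptor OX40, stood at 64.3 CPM in the Il1rl1 or Klrg1 cells and 20.5 CPM in the cells without either RNA. Tnfrsf9, the receptor 4-1BB, stood at 283 CPM in the chosen cells and 134 CPM in the others. Ly6a, the gene of the surface protein Sca-1, stood at 130 CPM in the chosen cells and 54.1 CPM in the others, yet its ratio of CPM + 10 was 0.39 among cells with only Xist RNA, as described for these cells below.

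Genes of lipid mediators and lipid storage were among the highest ratios. Hpgds, the haematopoietic prostaglandin D synthase, stood at 52.2 CPM in the Il1rl1 or Klrg1 cells and 8.98 CPM in the cells without either RNA, a ratio of 5.81 (4.17 to 8.01). Ptgs2, the inducible cyclooxygenase that feeds it, stood at 359 CPM in the chosen cells and 146 CPM in the others, a ratio of 2.46 (2.21 to 2.75). It was found in 66.7% and 26.4% of cells. Of 10 Notch and prostaglandin genes, 7 were higher, where 38.4% of all genes were, and 3 lower, with a median log2 ratio of 0.43. Notch2 and the Notch target Hes1 stood at 41.9 and 361 CPM in the chosen cells, against 17.4 and 231 CPM. Dgat2, which makes triglycerides, stood at 35.4 CPM in the chosen cells and 6.06 CPM in the others, a ratio of 5.84 (3.88 to 8.65). Hilpda, a lipid-droplet protein, stood at 644 CPM in the chosen cells and 253 CPM in the others, a ratio of 2.54 (2.34 to 2.76). The 11 lipid handling genes split into 6 higher, where 38.4% of all genes were, and 5 lower, with a median log2 ratio of 0.36.

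All 14 glycolysis enzymes were higher in the Il1rl1 or Klrg1 cells, none of them past 2-fold, where 38.4% of all genes were higher. Their median log2 ratio was 0.50. Ldha, the lactate dehydrogenase subunit, stood at 1861 CPM in the chosen cells and 1189 CPM in the others, a ratio of 1.56 (1.49 to 1.64). Pgk1, phosphoglycerate kinase, stood at 629 CPM against 382 CPM, a ratio of 1.65 (1.52 to 1.79), and Eno1, enolase, at 207 CPM against 134 CPM, with the chosen cells first. Gfpt1, which opens the hexosamine pathway that branches from glycolysis, came after Il5 and Cxcl3 in the size of its ratio of CPM + 10, which was 4.86. It stood at 186 CPM in the chosen cells and 30.4 CPM in the others, a ratio of CPM of 6.12 (5.15 to 7.26), and was found in 62.7% and 22.1% of cells.

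The remaining genes of largest ratio included chemokines. Cxcl2, a neutrophil attractant, stood at 1614 CPM in the Il1rl1 or Klrg1 cells and 520 CPM in the cells without either RNA, a ratio of 3.11 (2.95 to 3.27), and was found in 64.0% and 32.5% of cells. Cxcl3, a related chemokine, stood at 307 CPM in the chosen cells and 41.3 CPM in the others, but 116 of its 329 UMIs lay in 1 cell. The ratio of CPM + 10 was 6.17 with those 116 UMIs and 4.06 without them. Akap12, a kinase anchoring protein, and Fam46a, an RNA poly(A) polymerase, stood at 252 and 447 CPM in the chosen cells, against 73.2 and 136 CPM in the others. Hdc, which makes histamine, stood at 80.1 CPM in the chosen cells and 9.89 CPM in the others, from 86 UMIs in 13.3% of the chosen cells. S100a3 met the naming rule on 31 UMIs, of which 1 cell held 96.8%, and without the S100a3 UMIs of that cell its ratio of CPM + 10 was 0.82.

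**Figure D3:**
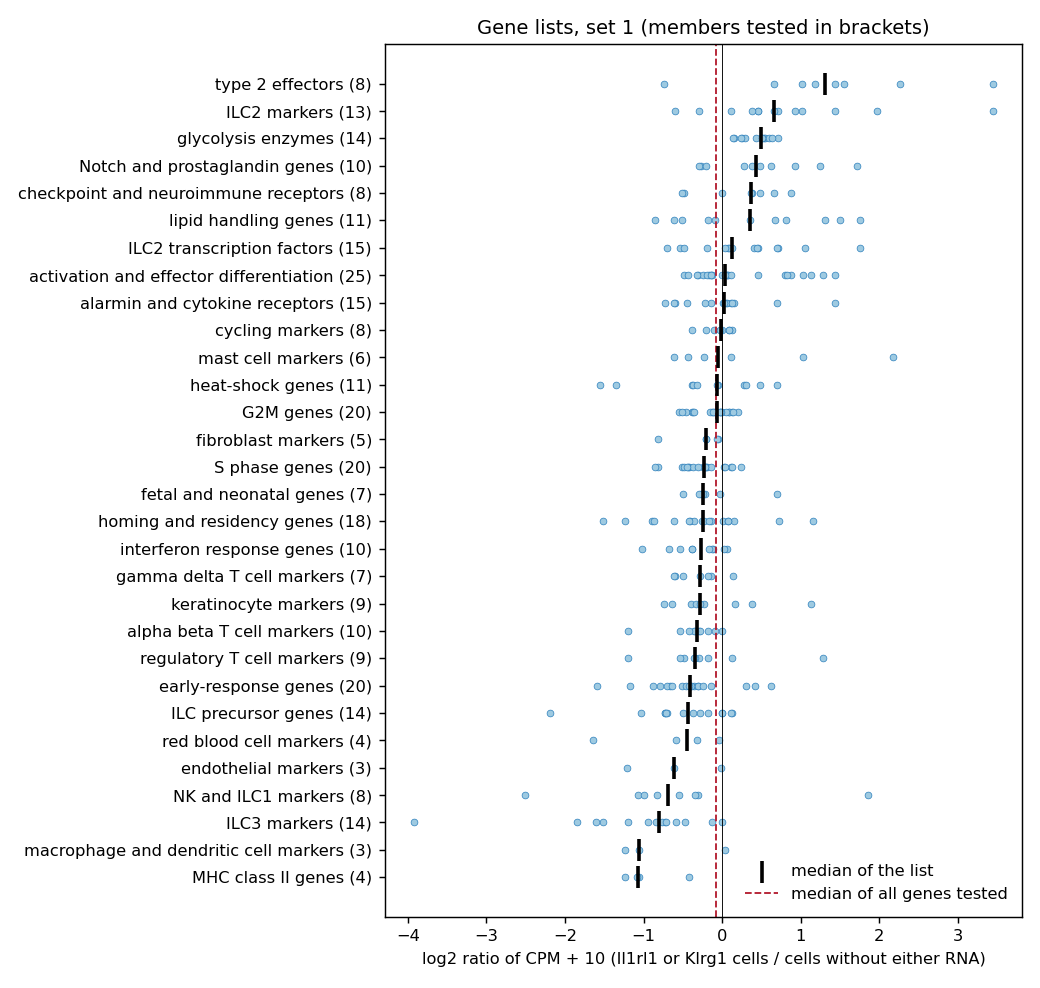
Each row is a gene list, each point a gene with at least 50 UMIs, and the x axis gives the log2 ratio of CPM + 10, Il1rl1 or Klrg1 cells over cells without either RNA. Black bars are list medians and the dashed line is the median of all genes tested, -0.07. Type 2 effectors lie highest at 1.31, and the ILC3 markers (-0.80) and MHC class II genes (-1.07) lie among the lowest.

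Genes of ILC3s were lower in the Il1rl1 or Klrg1 cells. Of 14 ILC3 markers, 13 were lower, where 61.6% of all genes were, and 1 higher. Their median log2 ratio was -0.80, and 5 were at least 2-fold lower, where 0.708% of all genes were. Il22, the ILC3 cytokine that acts on epithelium, had 3 UMIs in the chosen cells, at 2.80 CPM, and 2652 UMIs in the others, at 185 CPM, a ratio of 0.0151 (0.00312 to 0.0443). After thinning it was found in 0 of the 69 chosen cells, which allows up to 5.21%, and in 6.62% of the others. The chemokine receptor Ccr6 had 3 UMIs in the chosen cells and 383 in the others. Tmem176a and Tmem176b, membrane proteins abundant in ILC3s, stood at 12.1 and 10.2 CPM in the chosen cells and 69.2 and 51.8 CPM in the others. Il17a, Il23r, Il1r1 and Cd4 had no UMI in the chosen cells, and 72, 132, 93 and 185 UMIs in the others.

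Most genes of innate lymphoid precursors and of NK cells were lower as well. Of 14 precursor genes, 11 were lower, where 61.6% of all genes were, and 3 higher, with a median log2 ratio of -0.43. Tcf7, a factor of early lymphoid progenitors, stood at 41.0 CPM in the Il1rl1 or Klrg1 cells and 74.1 CPM in the cells without either RNA. Zbtb16, the gene of the precursor factor PLZF, stood at 20.5 CPM in the chosen cells and 52.4 CPM in the others. Of 8 NK and ILC1 markers, 7 were lower, where 61.6% of all genes were. Among them were Xcl1, with 1 UMI in the chosen cells and 747 in the others, and Klrk1, with 50.3 and 116 CPM in that order. The exception was Gzma, the gene of granzyme A, with 66 UMIs in 5 chosen cells and 140 UMIs in 8 of the others, and 47.0% of the 66 lay in 1 cell. Eomes, Ncr1, Klrb1c and Prf1, defining NK genes, had no UMI in the chosen cells. They had only 5, 0, 7 and 24 UMIs in the others, whose summed UMIs were far more, so these zeros do not separate the groups.

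The lowest ratios after Il22 belonged to genes that a part of the set carried. Jaml, a junctional adhesion protein, had 2 UMIs in the Il1rl1 or Klrg1 cells and 1384 in the cells without either RNA, a ratio of 0.0193 (0.00234 to 0.0700). Fcer1g and Tyrobp, signalling adaptors of NK and other receptors, had 3 and 1 UMIs in the chosen cells and 1442 and 864 in the others. Hopx and Cd7 had 4 and 1 UMIs in the chosen cells and 823 and 571 in the others, and Acpp had 0 and 359. Ier5l, the interferon-induced chemokine Cxcl10 and the creatine kinase Ckb stood at 25.2, 28.0 and 20.5 CPM in the chosen cells and at 112, 116 and 86.1 CPM in the others.

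Early-response genes, which handling of tissue is known to induce, were lower in 17 of 20 cases, where 61.6% of all genes were. Their median log2 ratio was -0.41. Fos stood at 279 CPM in the Il1rl1 or Klrg1 cells and 641 CPM in the cells without either RNA, and Dusp2 at 21.4 and 85.1 CPM in that order. The heat-shock gene Hspa1a stood at 340 CPM in the chosen cells and 1023 CPM in the others, and Hspa1b at 388 and 1001 CPM. Yet Dnajb1 stood at 331 CPM in the chosen cells and 200 CPM in the others, with 60.8% of its UMIs in 1 cell. Hspb1 stood at 202 and 142 CPM in that order, with 73.7% of its UMIs in 1 cell. Without the UMIs of the top cell, the ratio of CPM + 10 was 0.66 for Dnajb1 and 0.41 for Hspb1. Of the 11 heat-shock genes, 4 were higher and 7 lower, near the 61.6% of all genes that were lower, with a median log2 ratio of -0.06. The part of dissociation in the other differences was not tested.

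Markers of other cell types were read list by list. The summed mast cell markers stood at 337 CPM in the Il1rl1 or Klrg1 cells and 167 CPM in the others, but of that sum Kit held 218 and 102 CPM and Hdc the 80.1 and 9.89 CPM given above. Of 6 mast cell genes with enough UMIs, 3 were higher, where 38.4% of all genes were, and 3 lower. Their median log2 ratio was -0.06, and 2 were at least 2-fold higher, where 0.697% of all genes were. Fcer1a and Ms4a2, chains of the high-affinity IgE receptor, had no UMI in either group. The mast cell proteases Cma1 and Mcpt4 stood at 12.1 and 7.45 CPM in the chosen cells, against 23.9 and 13.7 CPM. Cpa3 of the same list stood at 12.1 CPM, from 13 UMIs, in the chosen cells and 10.4 CPM in the others. Of 12 mast cell genes 5 were at 0 in the chosen cells, and so were 5 of 8 basophil genes, Mcpt8 and Prss34 among them, 8 of 12 macrophage and dendritic cell genes and 4 of 6 B cell genes. None of these genes at 0 had more than 6 UMIs in the cells without either RNA, so these zeros do not separate the groups. Foxp3, the factor of regulatory T cells, had 1 UMI in the chosen cells and 10 in the others. The keratinocyte markers summed to 339 CPM in the chosen cells and 274 CPM in the others, and 6 of 9 were lower, near the 61.6% of all genes. The 3 higher were Sfn, at 182 CPM in the chosen cells and 77.1 CPM in the others, Perp and Dsp. Perp stood at 61.5 and 45.1 CPM and Dsp at 6.52 and 4.73 CPM in that order, and only Sfn was past 2-fold. Fibroblast markers summed to 66.2 and 92.3 CPM, and red blood cell markers to 49.4 and 138 CPM, in the same order.

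RNA of T cell receptor genes was found in both groups, as is known for innate lymphocytes. Trbc2, a constant region of the beta chain, was found in 89.3% of the Il1rl1 or Klrg1 cells and 89.5% of the cells without either RNA, at 352 and 453 CPM. Cd3g was found in 90.7% and 82.7%, at 384 and 468 CPM. Trac, the alpha chain constant region, stood at 6.52 and 11.1 CPM, and Cd3e at 5.59 and 7.73 CPM, in the same order. Cd4, Cd8a and Cd8b1 had no UMI in the chosen cells, and 185, 0 and 1 in the others. All 10 alpha beta T cell markers with enough UMIs were lower, where 61.6% of all genes were, with a median log2 ratio of -0.33. The 7 gamma delta markers had a median of -0.28. Trdv4, a gamma delta variable segment, was found in 40.0% of the chosen cells and 36.5% of the others, at 35.4 and 53.8 CPM.

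Clusters of set 1, made without Il1rl1 and Klrg1, showed where the cells lay. Cluster 0, led by Gzma, Cma1 and Calca, held 28 of the 75 (37.3%) and 23.8% of the cells without either RNA. Cluster 3, led by the histone gene Hist1h2ap and Top2a, a gene of dividing cells, held 23 (30.7%) and 19.1%. Cluster 2, led by Ptgs2, Gadd45b and Cxcl2, held 19 (25.3%) and 13.2%. Cluster 1, led by G0s2 and Hspa1a, held 4 of the chosen cells (5.33%) and 23.9% of the others. Cluster 4, led by Xcl1, Fcer1g, Tyrobp and Hopx, held 203 of the cells without either RNA (15.8%) and 0 of the 75, which allows up to 4.80%. Genes of the clusters are named to identify them, and cluster sizes are given as values because genes that shape the clusters also differ between the groups.

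**Figure D4:**
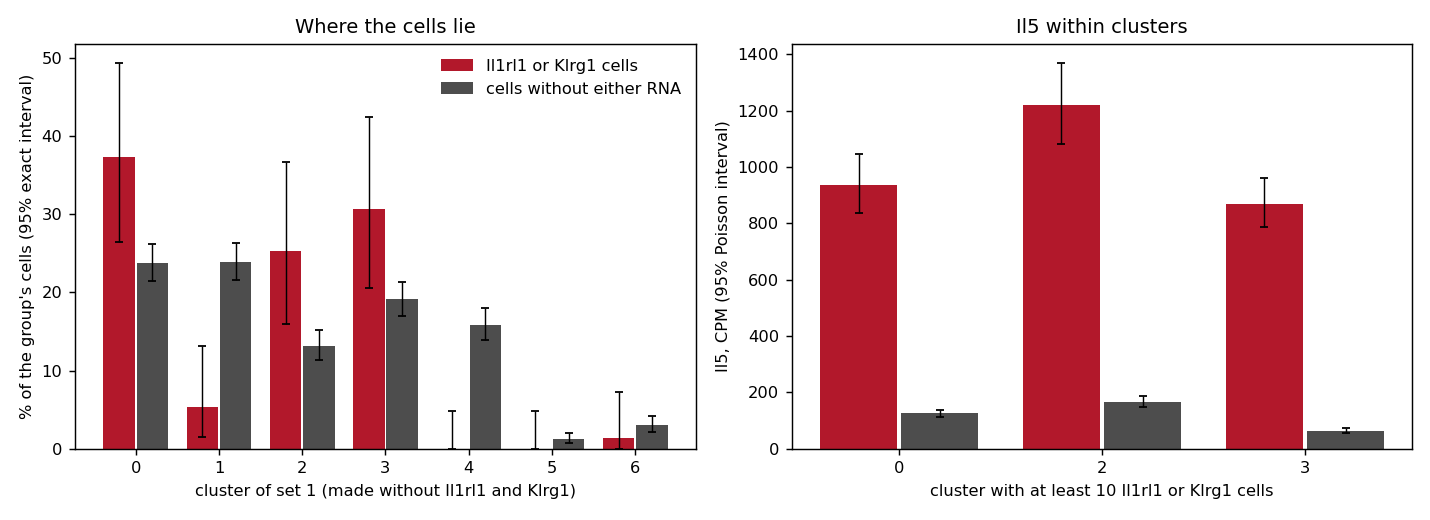
Left, bars give the percentage of the Il1rl1 or Klrg1 cells (red) and of the cells without either RNA (grey) in each cluster of set 1, with exact 95% binomial intervals. Right, bars give Il5 in CPM with 95% Poisson intervals in the 3 clusters with at least 10 of the chosen cells, and the red bars stand at 870 to 1219 CPM, above the grey bars at 64.2 to 166 CPM.

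Clusters 0, 2 and 3 together held 70 of the 75 cells and 719 of the cells without either RNA, and the comparison was repeated among these alone. Of 8397 genes, 52 (0.619%) were then at least 2-fold higher in the Il1rl1 or Klrg1 cells and 23 (0.274%) at least 2-fold lower, while 40.0% were higher and 60.0% lower at all. Il5 stood at 937 CPM in the chosen cells and 126 CPM in the others in cluster 0, at 1219 and 166 CPM in cluster 2, and at 870 and 64.2 CPM in cluster 3. In cluster 1 it stood at 31.7 CPM in 4 chosen cells, from 1 UMI, and 27.5 CPM in the others. The ratio of CPM + 10 within the 3 clusters was 8.41 for Il5, 4.39 for Gfpt1, 3.13 for Hs3st1, 2.90 for Pparg and 2.73 for Il2ra. Gata3 was nearer, at 1001 and 686 CPM in cluster 0, 1148 and 916 CPM in cluster 2, and 715 and 543 CPM in cluster 3, with the chosen cells first each time.

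Some differences were much smaller within those clusters. For Il22 the ratio of CPM + 10 was 0.07 over the set and 0.26 within the 3 clusters, for Fcer1g 0.12 and 0.54, for Tyrobp 0.16 and 0.62, and for Xcl1 0.18 and 0.83. Jaml hardly moved, at 0.11 and 0.13. The ILC3 markers had a median log2 ratio of -0.57 within the clusters, the MHC class II genes -0.28 and the precursor genes -0.23. Type 2 effectors kept a median of 1.18, ILC2 markers 0.45 and early-response genes -0.40, and all 14 glycolysis enzymes were again higher, with a median of 0.32.

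Among the chosen cells, levels followed the number of Il1rl1 and Klrg1 UMIs for Il5 but not for every gene. Il5 stood at 76.3 CPM in cells with 0 UMIs of the choosing genes, at 280 CPM with 1, at 425 CPM with 2, at 789 CPM with 3 or 4 and at 1565 CPM with 5 or more. The steps are cut on the genes that chose the cells, and these levels are a description. Hs3st1 followed the order 72.7, 178, 199.5, 274 and 459 CPM over the same steps. Il2ra ran 107, 173, 232, 266 and 418 CPM.

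The cells just outside the threshold, with 1 UMI, resembled the cells without either RNA for some genes and the chosen cells for others. Areg stood at 599 CPM with 0 UMIs, 576 CPM with 1, 1030 CPM with 2, 1147 CPM with 3 or 4 and 1485 CPM with 5 or more. Gata3 stood at 540, 763, 816, 935 and 916 CPM over these steps, so that most of its difference lay between 0 and 1 UMI. Il13 stood at 233, 226, 258, 502 and 355 CPM. Il4 stood at 79.8, 26.9, 58.7, 46.1 and 27.5 CPM, with no steady order. These cells were cut by UMIs, so deeper cells can fall in the higher steps, with median depths of 12570, 12013, 15426 and 14175 UMIs at 1, 2, 3 or 4, and 5 or more.

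**Figure D5:**
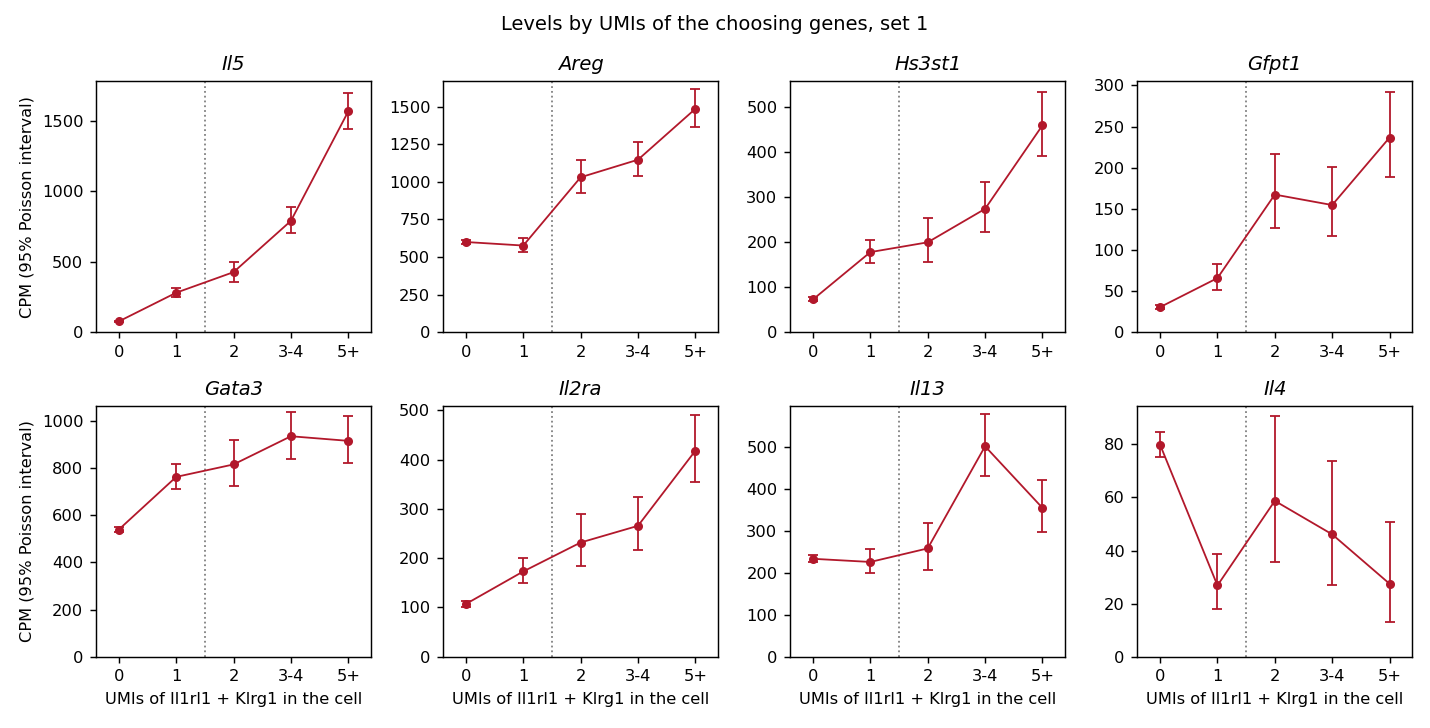
Each panel gives the CPM of a gene (y axis, with 95% Poisson intervals) in cells of set 1 grouped by their UMIs of Il1rl1 and Klrg1 together (x axis), and the dotted line marks the threshold for the chosen cells. Il5 goes up at every step to 1565 CPM, while Gata3 is nearly level from 2 UMIs on and Il4 has no steady order.

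The 6 cells with Klrg1 and no Il1rl1 UMI differed from the rest by Il5. Il5 stood at 74.9 CPM (27.5 to 163 CPM) in these 6 cells, from 6 UMIs, at 1194 CPM in the 24 cells with both RNAs and at 899 CPM in the 45 cells with Il1rl1 alone. This level, on 6 UMIs, was close to that of the cells without either RNA, and its interval leaves out the spread between cells. Areg stood at 262, 1605 and 1129 CPM in the same order, Il13 at 37.5, 430 and 385 CPM, and Il2ra at 12.5, 342 and 324 CPM. Csf2 had no UMI in the 6 cells, which allows up to 46.1 CPM, and stood at 197 and 142 CPM in the other groups. Gata3 was found in all 6 at 612 CPM, beside 872 and 937 CPM. Pparg stood at 112, 94.4 and 45.8 CPM and Gfpt1 at 212, 239 and 153 CPM in the same order, and the intervals of the 6 cells overlapped those of the other groups. None of the 6 cells had more than 4 UMIs of the choosing genes, and Il5 was lower at such steps than at 5 or more. The part of this in the Il5 level of the 6 cells was not tested.

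Over 1903 genes, 26 (1.37%) were at least 2-fold higher and 221 (11.6%) at least 2-fold lower in the 6 Klrg1 cells than in the 45 Il1rl1 cells. The minimum of UMIs a gene was taken over both groups, which held 80091 UMIs in the 6 cells and 633127 in the 45. A gene found only in the 45 cells thus passed it at a lower CPM than a gene found only in the 6. With no minimum the counts were 791 higher and 1394 lower. The excess of lower genes was therefore not read as a difference between the groups. Of the 6 higher genes named here, all but Gabarapl1 had most of their UMIs in 1 of the 6 cells. Slc16a3, a lactate transporter, had 28 UMIs in the 6 cells, of which 23 were in 1 cell. Of 40 UMIs of Gpx1, an antioxidant enzyme, 33 were in 1 cell, as were 22 of 23 of Plaur, the urokinase receptor. Cstb, Fam162a and Gabarapl1 completed the highest genes. On the lower side, Hspa1a and the histone gene Hist1h2ap had no UMI in the 6 cells and stood at 513 and 272 CPM in the Il1rl1 cells, and Ccl1, Hist1h2bc and Hsph1 were among the lowest as well.

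Cells with both RNAs were close to the Il1rl1 cells. Over 2587 genes, 17 (0.657%) were at least 2-fold higher and 18 (0.696%) at least 2-fold lower in them. Akap12 stood at 408 CPM in the cells with both RNAs and 160 CPM in the Il1rl1 cells, and Pdia4, a protein-folding enzyme of the endoplasmic reticulum, at 150 and 45.8 CPM. Sat1, a polyamine enzyme, stood at 422 and 126 CPM, and Cxcl3 at 778 and 77.4 CPM, 116 of its 280 UMIs being in 1 cell. Slfn2 and Hey1, a Notch target, followed. On the lower side, Gzma stood at 11.1 CPM in the cells with both RNAs and 97.9 CPM in the Il1rl1 cells. The heat-shock genes Dnajb1, Hspa1a, Hspb1 and Dnaja4 and the chemokine Ccl1 were lower too, but 216 of the 310 Dnajb1 UMIs and 160 of the 185 Hspb1 UMIs of the Il1rl1 cells lay in 1 cell.

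The chosen cells were more often male by their RNA. Xist, the RNA of the inactive X chromosome, marks cells of female mice, and genes of the Y chromosome mark cells of male mice. Xist without Y-linked RNA was found in 13 of 75 Il1rl1 or Klrg1 cells (17.3%) and in 37.5% of the cells without either RNA, and Y-linked RNA without Xist in 51 of 75 (68.0%) and in 45.3%. Among cells of a single kind, the Y-linked share was 79.7% (67.8 to 88.7%) in the chosen cells and 54.7% (51.7 to 57.7%) in the others, and it was 53.1% (40.2 to 65.7%) in the cells with 1 UMI. It was 72.7% against 55.7% in cluster 0, 81.2% against 59.9% in cluster 2 and 90.9% against 58.8% in cluster 3. Both kinds of RNA in 1 cell were found in 2.67% of the chosen cells and 2.81% of the others. How many mice of either sex were pooled is not stated in the sources used here, so sex and animal cannot be told apart.

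Ratios were also taken within each kind of cell. The genes of largest and smallest ratio were named only where both kinds had the same direction, so their direction is no separate result. The ratio of CPM + 10 for Il5 was 9.77 among cells with only Xist and 10.59 among cells with only Y-linked RNA. It was 3.94 and 3.75 for Hs3st1, 4.53 and 3.52 for Pparg, and 1.78 and 1.40 for Gata3. It differed more for Ptgs2, at 1.14 and 2.63, for Cxcl2, at 1.53 and 3.22, and for Ccl1, at 1.27 and 6.60. Genes named by other rules could differ in direction, with Ly6a and Gzma at 0.39 and 0.33 and Penk at 0.81 among the Xist cells. The median log2 ratio of the type 2 effectors was 0.56 among the Xist cells, beside 1.31 over both kinds. With 13 Xist cells in the chosen group, these values rest on few cells, and the part of sex in them was not tested.

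Cells with RNA of cycling markers were about as common in both groups once cells were thinned to 1 depth, while S phase genes were lower in most cases. At least 3 UMIs of 8 cycling markers were found in 40.0% of the Il1rl1 or Klrg1 cells and 34.6% of the cells without either RNA, and in 39.1% of each after thinning. Mki67, a marker of dividing cells, stood at 236 CPM in the chosen cells and 216 CPM in the others, a ratio of 1.09 (0.956 to 1.24). Of 20 S phase genes, 15 were lower, where 61.6% of all genes were, with a median log2 ratio of -0.23. Within clusters 0, 2 and 3, 19 of the 20 were lower, where 60.0% of all genes were, with a median of -0.38. There 2 were at least 2-fold lower, where 0.274% of all genes were. Over the whole set the 20 G2 and M phase genes had a median of -0.07, the same as all genes.

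Homing genes differed in a few cases. Ccr4, a receptor that guides lymphocytes to skin, stood at 38.2 CPM in the Il1rl1 or Klrg1 cells and 11.6 CPM in the cells without either RNA, a ratio of 3.30 (2.29 to 4.68). Klf2, a factor that favours recirculation of lymphocytes, stood at 16.8 and 53.2 CPM in that order, and Ccr7, the lymph node homing receptor, at 18.6 and 43.0 CPM. Among the 18 genes of homing and residency with enough UMIs, 12 were lower, near the 61.6% of all genes that were lower, with a median log2 ratio of -0.25. Among 8 checkpoint and neuroimmune receptors, 6 were higher, where 38.4% of all genes were, with a median of 0.37. Ramp3, a partner chain of calcitonin family receptors, stood at 798 CPM in the chosen cells and 501 CPM in the others, a ratio of 1.59 (1.48 to 1.71), and Havcr2, the gene of TIM-3, at 21.4 and 7.17 CPM.

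The same rule applied to cell set 2 chose 58 of 3508 kept cells (1.65%), and their values are given beside those of set 1 without a comparison of ages. Il5 stood at 2287 CPM in those 58 cells and 196 CPM in the 3364 cells of set 2 without either RNA. Gata3 stood at 1845 and 559 CPM, Areg at 2732 and 940 CPM, Il13 at 1178 and 346 CPM, Csf2 at 1167 and 86.4 CPM, Pparg at 54.9 and 1.34 CPM and Hs3st1 at 104 and 13.7 CPM, in the same order. Thus Il5, Csf2, Pparg and Hs3st1 were higher in the chosen cells of both sets. Ptgs2 was not, with 20.2 CPM in the 58 cells and 21.2 CPM in the others of set 2. The cells of set 2 were shallower, with a median of 5588 UMIs in the 58 and 4820.5 in the others.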

How the data were processed

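The deposited table held whole-number UMI counts of 18786 gene symbols in 5246 cells, which the authors had not scaled. Build mm10, Cell Ranger 3.1.0 and Seurat 4.1.0 are named per the submitters' processing notes, with settings not given in the sources used here. Cells with more than 10% mitochondrial UMIs were left out (30 of the 1471 cells of set 1). No column was mapped to a day, so the table was 1 pooled sample and no test was run.

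The cells and gene lists were chosen with earlier results of these data known. UMIs were summed per group and given as CPM with exact Poisson intervals, ratios with exact binomial intervals, and shares with Clopper-Pearson intervals, all at 95%. The upper limit beside a count of 0 is the upper end of its exact interval. A gene with at least 50 UMIs was called past a ratio of CPM + 10 of 2. Named genes were the 12 largest and 12 smallest ratios with 1 direction in Xist-only, Y-only and thinned cells, up to 4 genes of each of 32 lists by size of the ratio, and the ILC2 markers. Between subgroups 6 genes of each direction were named. Ribosomal, mitochondrial, haemoglobin, receptor segment and unnamed genes were left out of the ranking, and not every gene picked by the list rule is printed. Genes named beside these were chosen from the lists after their values were seen.

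Clusters came from scanpy 1.11.5 (2000 variable genes without Il1rl1 and Klrg1, 30 components, 15 neighbours, Leiden resolution 0.5). TMM factors from edgeR 4.0.16 were another scaling only. The scripts were tested on simulated data. Gene positions are those of RefSeq on GRCm38.p6.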

Additional observations from a re-analysis of the deposited data

How the results depend on the processing

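The main limits are the absence of replicates, a chosen group of 75 cells in which single cells can set a gene's level, and the mixture of cells it was set against. Of the 65 genes at least 2-fold higher and the 66 at least 2-fold lower, the counts were 33 and 33 with a threshold of 1 UMI, 173 and 592 with at least 2 UMIs of Klrg1 alone, 142 and 709 with CPM + 1, and 98 and 171 without cycling cells. The lower count was 101 with a threshold of 3 UMIs, 118 after thinning to the lower quartile and 1001 among Xist-only cells. It was 23 within the clusters with at least 10 of the chosen cells, an alternative added after seeing the data, as was leaving out the cell with the most Il5 UMIs. The median log2 ratio of the type 2 effectors, 1.31, was 1.10 with a threshold of 1 UMI, 1.53 with 3 UMIs, 0.44 with Klrg1 alone, 1.10 with a minimum of 20 UMIs a gene, 0.87 with no minimum and 0.56 among Xist-only cells. The ILC3 median stayed between -2.33 and -0.57 over the settings run.

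Between Klrg1 and Il1rl1 cells, the 26 higher genes were 13 with TMM scaling, 153, 8 and 791 with a minimum of 20, 100 and no UMIs a gene, and 45 among Y-only cells. The 221 lower genes were 107 after thinning, 567, 96 and 1394 with those minimums, 61 among Xist-only cells and 87 without cycling cells. Reweighting by depth was not run there, since 1 side has 6 cells.

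Ratios of CPM + 10 that changed side were 0.34 for Ccl1, 0.51 for Gzma and 0.50 for Hdc with Klrg1 alone, 0.33 for Gzma, 1.36 for Hbb-bs and 0.39 for Ly6a among Xist-only cells, and 0.93 for Ccl1 without cycling cells. The share of cells without either RNA that had an Il5 UMI was 26.0% when thinned to the median depth, beside 20.5%. The cluster holding most of the chosen cells took 66.7% of them at resolution 0.3 and 58.7% with 15 components, beside 37.3%. The group was 10.96% of the set with a threshold of 1 UMI, 3.33% with 3 and 3.89% when counted after thinning, beside 5.20%. The cause was not tested in these cases. No paired analysis was possible because each day has 1 library and the cell sets are not mapped to a day.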

Other observations

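Some genes outside the lists were also past 2-fold in the Il1rl1 or Klrg1 cells of set 1. They were chosen after their values were seen and are given as values. Several act in cytokine signalling. Jak2, a kinase of cytokine receptors, stood at 332 CPM in the Il1rl1 or Klrg1 cells and 132 CPM in the cells without either RNA, a ratio of 2.52 (2.24 to 2.82), and was found in 89.3% and 57.6% of cells. Socs2, a feedback inhibitor of such kinases, stood at 445 CPM in the chosen cells and 182 CPM in the others. Stat4, a transcription factor activated by cytokine receptors, stood at 84.8 and 28.6 CPM, and Il10ra, a receptor chain for IL-10, at 68.0 and 20.3 CPM, in the same order. Within the clusters that held at least 10 of the chosen cells, the ratio of CPM + 10 was 2.05 for Jak2, 1.91 for Socs2, 2.59 for Stat4 and 2.03 for Il10ra.

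Ltb4r1, a receptor for the lipid mediator leukotriene B4, stood at 72.7 CPM in the Il1rl1 or Klrg1 cells and 19.8 CPM in the cells without either RNA, a ratio of 3.67 (2.82 to 4.74), and was found in 46.7% and 15.1% of cells. Rab27b, a small GTPase of secretory vesicles, stood at 184 CPM in the chosen cells and 58.8 CPM in the others. Zeb2, a transcription factor of mature lymphocytes, stood at 71.7 and 20.9 CPM in that order. Among genes at least 2-fold lower, Il2, the gene of a lymphocyte growth factor, stood at 6.52 CPM, from 7 UMIs, in the chosen cells and 36.6 CPM in the others, and Tnf at 5.59 and 27.3 CPM. Il2 thus went the other way from Il2ra, a chain of its receptor.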
